A study of Mus musculus with 15 samples.

Results

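Regulatory T cells (Tregs) from the thymus were compared with Tregs from the spleen of the same kind of mouse, the line labelled RelB-dDC, here called dDC. The samples were chosen by their labels alone: 2 thymus libraries and 3 spleen libraries, 5 of the 15 in the series. All 18423 genes with enough counts entered the comparison, and the 92 spike-in features were left out. The series holds bulk RNA sequencing of Foxp3-positive T cells isolated by flow sorting from adult animals with a Foxp3 reporter. Its other libraries are 3 from control thymus, 3 from control spleen and 4 from the peritoneal cavity. Every mouse, littermate controls included, was of the C57BL/6 strain and carried the reporter. The labels leave the abbreviation dDC unexplained. It is taken here to mean a deletion of Relb, the gene of an NF-kappaB subunit, in dendritic cells, and what drives that deletion is not given in the sources used here. Nor do they say whether a library came from 1 mouse or from several, so the p-values measure only the spread between these libraries, which may be technical.

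Tregs are T cells that restrain immune responses, and the transcription factor Foxp3 sets their identity. They arise in the thymus from developing T cells under antigen receptor and cytokine signals, and dendritic cells of the thymic medulla are among the cells that present antigen to them. New Tregs leave for blood, spleen and lymph nodes, and some mature Tregs return to or stay in the thymus, so a thymus sort can hold newly made and older cells together. These libraries do not separate the 2 kinds of cell, because the labels name no marker besides Foxp3.

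The 5 libraries held 17702061 to 20877814 counts each. Foxp3 stood at 270 and 268 CPM (counts scaled to a common library size) in the 2 thymus libraries and at 256, 241 and 210 CPM in the 3 spleen libraries. It did not pass the test between the tissues (log2 difference 0.19, SE 0.18, edgeR adjusted p = 0.871). Il2ra, the high-affinity interleukin 2 receptor chain, lay at 448 to 864 CPM and the transcription factor gene Ikzf2 at 887 to 1273 CPM, so the labelled cell type carried its defining genes in each library. Relb lay at 22.4 to 37.6 CPM in the 5 libraries. A deletion in dendritic cells would leave Relb of Tregs intact, so this value does not check the genotype label. Thymus library 1 had the fewest genes with at least 10 counts of all 15 (13510, against 13921 to 15406 in the others), and thymus library 2 had the largest share of mitochondrial counts among the 5 (4.72%, against 3.14% to 3.80%). The counts of called genes are therefore also given without each library.

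In dDC mice, thymus Tregs had higher levels of the Treg receptors Tnfrsf18 and Tnfrsf4, of the interferon-response genes Irf7 and Ifit3 and of the chemokine receptor Cxcr6, and almost no RNA of many B cell genes. At an adjusted p under 0.05 in edgeR's quasi-likelihood test, 33 of 18423 genes were called, or 0.179% of those tested. Of these, 9 were higher in the thymus (0.0489%) and 24 were lower (0.13%). At an unadjusted p under 0.05 there were 552 higher and 876 lower genes (3% and 4.75%, together 7.75%). In all 33 called genes the 2 thymus values lay outside the range of the 3 spleen values, which was also true of 22.7% of all tested genes. Without thymus library 1 the counts were 2 higher and 2 lower, and without thymus library 2 they were 11 and 70. Without spleen library 1, 2 or 3 they were 4 and 15, 1 and 13, and 1 and 14. DESeq2 called 106 higher and 319 lower, and limma called 17 and 8.

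**Figure D1:**
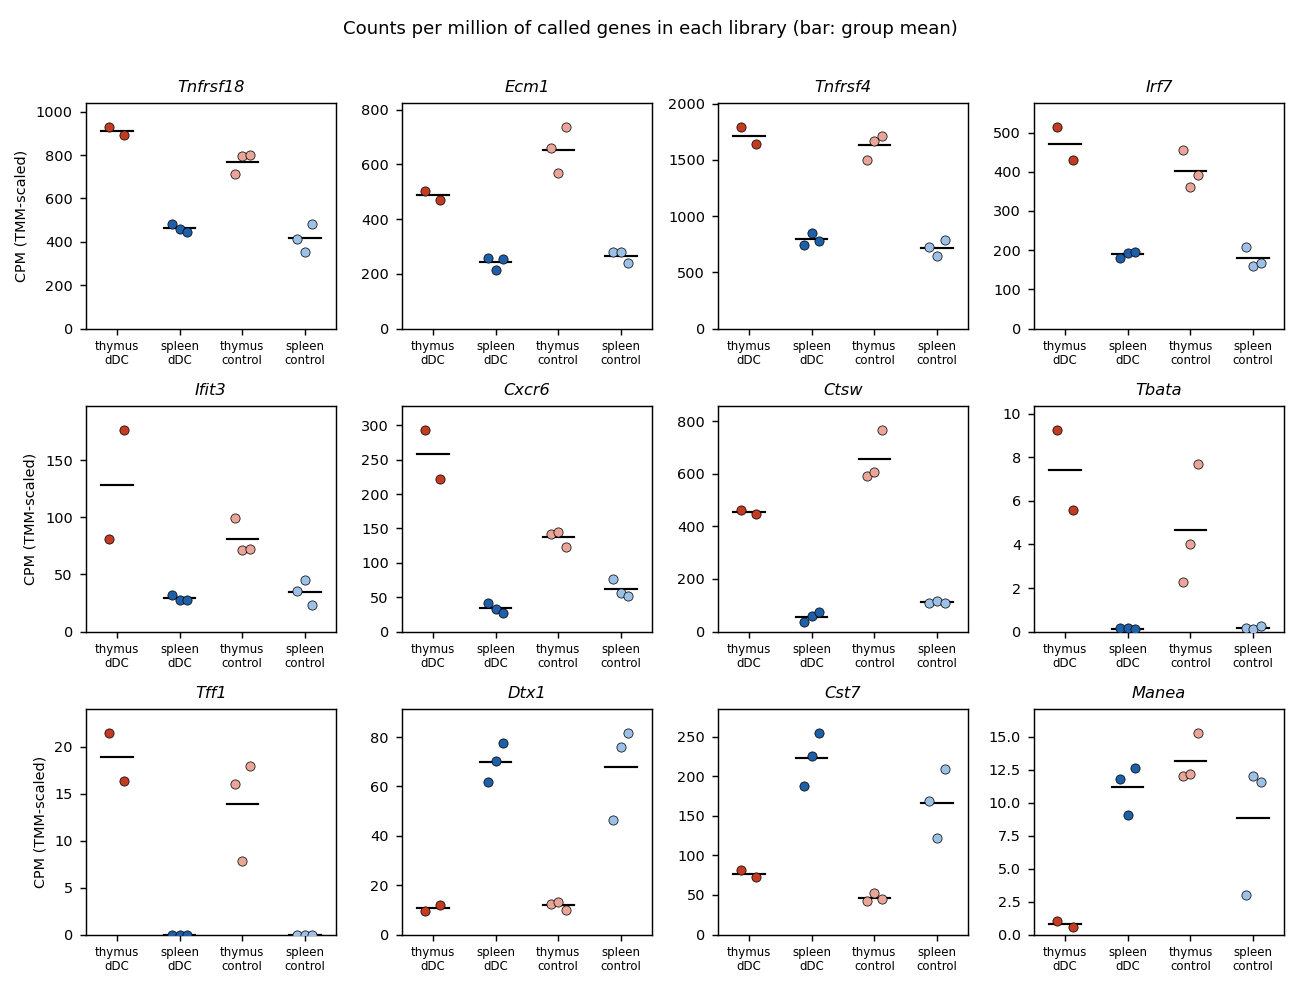
CPM of the 9 genes called higher in thymus Tregs of dDC mice and of Dtx1, Cst7 and Manea, called lower, in each thymus and spleen library of dDC and control mice (linear axes from 0; points are libraries, bars are group means). In every panel the 2 dDC thymus points lie outside the range of the 3 dDC spleen points, and in the Manea panel the control thymus points lie near the dDC spleen points.

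Among genes of Treg identity, the receptors Tnfrsf18 (GITR) and Tnfrsf4 (OX40) and the secreted matrix protein gene Ecm1 rose. GITR and OX40 are costimulatory receptors of the TNF receptor family that are high on Tregs and favour their formation in the thymus. Tnfrsf18 (ENSMUSG00000041954, chromosome 4, 156026164 to 156028895 in mm10) measured 929 and 890 CPM in thymus against 482, 457 and 447 CPM in spleen. That was a 1.97-fold rise (log2 0.98, SE 0.13, edgeR adjusted p = 0.0118). Tnfrsf4 (ENSMUSG00000029075, chromosome 4, 156013843 to 156016612) measured 1793 and 1638 CPM against 748, 853 and 781 CPM, 2.16-fold higher with the same adjusted p. These genes are near neighbours on chromosome 4, 9551 bases apart with 2 annotated genes between them. Tnfrsf18 also shares exon bases with a model gene on the other strand, Gm16008, which held 326 counts over the thymus libraries and 386 over the spleen libraries. Ecm1 measured 502 and 471 CPM against 259, 216 and 254 CPM, a 2.0-fold rise with the same adjusted p. In none of the 3 genes did thymus and spleen libraries overlap.

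The Treg identity list has 23 tested members, and 3 of them rose and 0 fell, against 0.179% called among all genes. Its median log2 difference was 0.40, beside -0.02 over all tested genes, and it stayed between 0.34 and 0.41 with each of the 5 libraries left out. In 14 members the thymus libraries lay above the spleen libraries (10.2% of all genes did) and in 2 members below (12.6%). Itgae, the integrin chain CD103 that binds E-cadherin on epithelium, stood at 553 and 549 CPM in thymus against 195, 164 and 196 CPM in spleen. The groups are well apart, yet the gene did not pass (log2 1.58, SE 0.49, edgeR adjusted p = 0.416). Socs2, a feedback inhibitor of cytokine signals, stood at 76.2 and 62.7 CPM against 33.4, 21.6 and 25.0 CPM and did not pass either (adjusted p = 0.307). Izumo1r, the folate receptor 4 of Tregs, had lower values in thymus, 705 and 923 CPM against 1179, 1287 and 1434 CPM (log2 -0.68, adjusted p = 0.356). Ikzf2, Ctla4, Nrp1 and Il2rb had differences between -0.06 and 0.40 on the log2 scale, none of them called.

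Among receptors of chemokines 1 gene was called. Cxcr6, the receptor for the chemokine CXCL16 that dendritic cells and macrophages display, rose from 41.8, 33 and 26.9 CPM in spleen to 293 and 223 CPM in thymus. The gene (ENSMUSG00000048521, chromosome 9, 123806477 to 123811754) was 7.61-fold higher, with a log2 difference of 2.93, an SE of 0.37 and an edgeR adjusted p of 0.011. Of 17 tested chemokine receptor genes it alone was called. The list median was -0.14, and -0.81 without thymus library 2 and 0.15 without spleen library 3. Ccr6, a receptor of CCL20, stood at 273 and 281 CPM against 142, 140 and 112 CPM (log2 1.08, adjusted p = 0.303). Cxcr4, which binds CXCL12 and guides early thymocytes, stood at 74.8 and 121 CPM against 33.6, 30.1 and 44.7 CPM (log2 1.44, adjusted p = 0.26). Ccr7, which brings thymocytes into the medulla, stood at 418 and 589 CPM against 275, 228 and 344 CPM (log2 0.83, adjusted p = 0.405). Cxcr5, the follicular homing receptor, had the opposite sign with 22.1 and 76.4 CPM against 144, 158 and 175 CPM (log2 -1.69, adjusted p = 0.195). In each of these 4 receptors the groups did not overlap, and the test was not passed. Among the 17 tested receptor genes thymus lay above spleen in 5 and below in 3, where 10.2% and 12.6% of all genes did so. The groups overlapped in the other 9. Ccr9 stood at 3.29 and 34.8 CPM in thymus and at 9.88 to 24.5 CPM in spleen, with overlap.

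The protease gene Ctsw (cathepsin W, known from cytotoxic lymphocytes) gave one of the steepest rises. It went from 37.2, 57.4 and 72.8 CPM in spleen to 461 and 447 CPM in thymus (ENSMUSG00000024910, chromosome 19, 5465240 to 5468498). The log2 difference was 3.03, with an SE of 0.42 and an edgeR adjusted p of 0.0138. Other genes of cytotoxic cells gave no call: of 16 tested members of the CD8, cytotoxic and natural killer list 0 were called and 12 had a negative difference. The list median was -3.53, and 10 members lay below spleen (12.6% of all genes did) and 1 above (10.2%). The summed list overlapped between the tissues, at 253 and 280 CPM in thymus and 206 to 340 CPM in spleen. Its members of highest level had positive differences without a call: Ccl5, a chemokine gene, stood at 158 and 107 CPM against 70.7 to 152 CPM, and Nkg7, of cytotoxic granules, at 54.2 and 90.7 CPM against 35.2 to 65.4 CPM. Ncr1 and Klrb1c, receptors of natural killer cells, were listed at 0 in both thymus libraries and at 7.3 to 10.5 and 5.5 to 9.1 CPM in spleen.

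Weakly expressed genes Tbata and Tff1 were called as well. Tbata, named for its presence in thymus, brain and testis, measured 9.26 and 5.60 CPM in thymus and 0.160, 0.150 and 0.097 CPM in spleen (log2 5.71, SE 0.92, edgeR adjusted p = 0.0339). Tff1, a trefoil peptide of mucosal epithelium, measured 21.5 and 16.4 CPM, 392 and 334 counts, in thymus and no count in any spleen library. Against 3 counts per spleen library that is at least 125-fold higher (edgeR adjusted p = 0.0421). Tff1 is among the tissue-restricted genes that medullary thymic epithelium can express. Of the 16 members of the thymic epithelium list 10 were tested and 0 called, 7 were positive, and the median was 0.84 (-1.56 to 1.26 with single libraries left out). Aire, Foxn1 and Psmb11 were too low to be tested, while the keratin genes Krt18 and Krt14 stood at 14.3 and 2.31 CPM and at 0 and 11.9 CPM in thymus, with 0 to 5.54 and 0 to 2.64 CPM in spleen. The summed level of the list was 51.5 and 95.4 CPM in thymus and 45.5 to 78.5 CPM in spleen, so the ranges overlapped. The part of such cells in the levels of Tff1 and Tbata was not tested. Tff1 was also at 0 in both peritoneal libraries of dDC mice, where Tbata measured 0.155 and 0.222 CPM.

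Interferon-response genes were the second group with calls on the higher side. Interferons act through a complex that includes Stat2 and Irf9 and binds the interferon-stimulated response element, a repeat of GAAA spaced by 2 bases. Irf7, a transcription factor that amplifies type I interferon, measured 514 and 429 CPM in thymus against 180, 194 and 195 CPM in spleen. It rose 2.49-fold (log2 1.31, SE 0.18, edgeR adjusted p = 0.0118; ENSMUSG00000025498, chromosome 7, 141262706 to 141266481). Irf7 shares exon bases with Phrf1 on the opposite strand, and reads of the 2 genes cannot be told apart without strand. Phrf1 itself held 2783 counts over the thymus libraries and 4437 over the spleen libraries. Ifit3, an antiviral effector that is induced early by interferon, measured 80.7 and 176 CPM against 31.8, 27.5 and 27.6 CPM. It rose 4.44-fold (log2 2.15, SE 0.34, edgeR adjusted p = 0.0303), and the thymus libraries differed more between themselves than the spleen libraries did.

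To show the element where the data bear on it, the 250 bases before the start site of 4 list members are printed from RefSeq (GRCm38.p6), each 5' to 3' on the gene's strand. The motif searched was GAAA, any 2 bases and GAAA again, on both strands, so the reverse form reads TTTC, any 2 bases and TTTC, and capitals mark every match.
Ifit3 (chr19:34583279-34583528, plus strand): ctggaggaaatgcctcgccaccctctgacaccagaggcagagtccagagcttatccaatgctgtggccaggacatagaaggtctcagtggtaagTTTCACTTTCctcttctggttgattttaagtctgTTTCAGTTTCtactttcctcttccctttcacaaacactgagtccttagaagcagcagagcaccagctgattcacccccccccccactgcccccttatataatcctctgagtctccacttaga
Ifit1 (chr19:34640639-34640888, plus strand): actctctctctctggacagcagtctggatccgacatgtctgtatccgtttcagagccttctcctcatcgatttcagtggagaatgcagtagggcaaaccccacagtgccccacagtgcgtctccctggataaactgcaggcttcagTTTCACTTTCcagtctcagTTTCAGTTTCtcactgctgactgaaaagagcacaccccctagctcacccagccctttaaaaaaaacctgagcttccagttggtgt
Isg15 (chr4:156200819-156201068, minus strand): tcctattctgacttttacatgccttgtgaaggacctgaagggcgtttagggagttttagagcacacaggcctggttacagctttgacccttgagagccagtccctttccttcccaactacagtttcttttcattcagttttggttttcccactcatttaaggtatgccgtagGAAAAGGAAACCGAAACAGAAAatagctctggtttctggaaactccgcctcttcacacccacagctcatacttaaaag
Irf7 (chr7:141266425-141266674, minus strand): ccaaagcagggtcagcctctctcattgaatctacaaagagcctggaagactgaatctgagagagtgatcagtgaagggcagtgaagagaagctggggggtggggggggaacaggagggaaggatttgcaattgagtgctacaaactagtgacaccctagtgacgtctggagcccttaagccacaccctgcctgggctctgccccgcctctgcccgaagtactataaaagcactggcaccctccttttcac
Ifit3 holds 2 matches that begin 156 and 122 bases before the start site, and Ifit1 holds 2 that begin at 104 and 85. Isg15 holds 3 overlapping matches that begin at 78, 72 and 66. Irf7 shows no match to these letters, which says only that they are not in this window. RefSeq windows of 300 bases were found for 26 of the 36 list members, and 16 of them (61.5%) hold the motif. Over all 27025 genes with a window the share was 4.0%. A match is a description of the sequence, and the list was drawn from genes known to respond to interferon.

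Of 36 interferon list members 2 rose and 0 fell, and 32 had a positive difference. The list median was 0.64 on the log2 scale, beside -0.02 for all genes. In 18 members thymus lay above spleen, with 0 below, where 10.2% and 12.6% of all genes did so. The size of this depended on thymus library 2: the median was 0.18 without it and 0.68 without thymus library 1. Usp18, which removes the ubiquitin-like Isg15 from proteins, stood at 234 and 566 CPM against 163, 136 and 185 CPM (log2 1.31, edgeR adjusted p = 0.183). Mx2, an antiviral GTPase, stood at 37.9 and 24.4 CPM against 7.2, 4.0 and 5.4 CPM (log2 2.50, adjusted p = 0.53). Ifit1 stood at 248 and 434 CPM against 150, 86.7 and 150 CPM, and Isg15 at 81.4 and 92.5 CPM against 61.8, 37.1 and 44.7 CPM. None of these 4 passed, though their thymus and spleen values did not overlap. Rsad2 (viperin), an antiviral enzyme, had the opposite sign, with 6.9 and 18.8 CPM against 62.0, 16.5 and 48.0 CPM (log2 -1.71, adjusted p = 0.716).

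**Figure D2:**
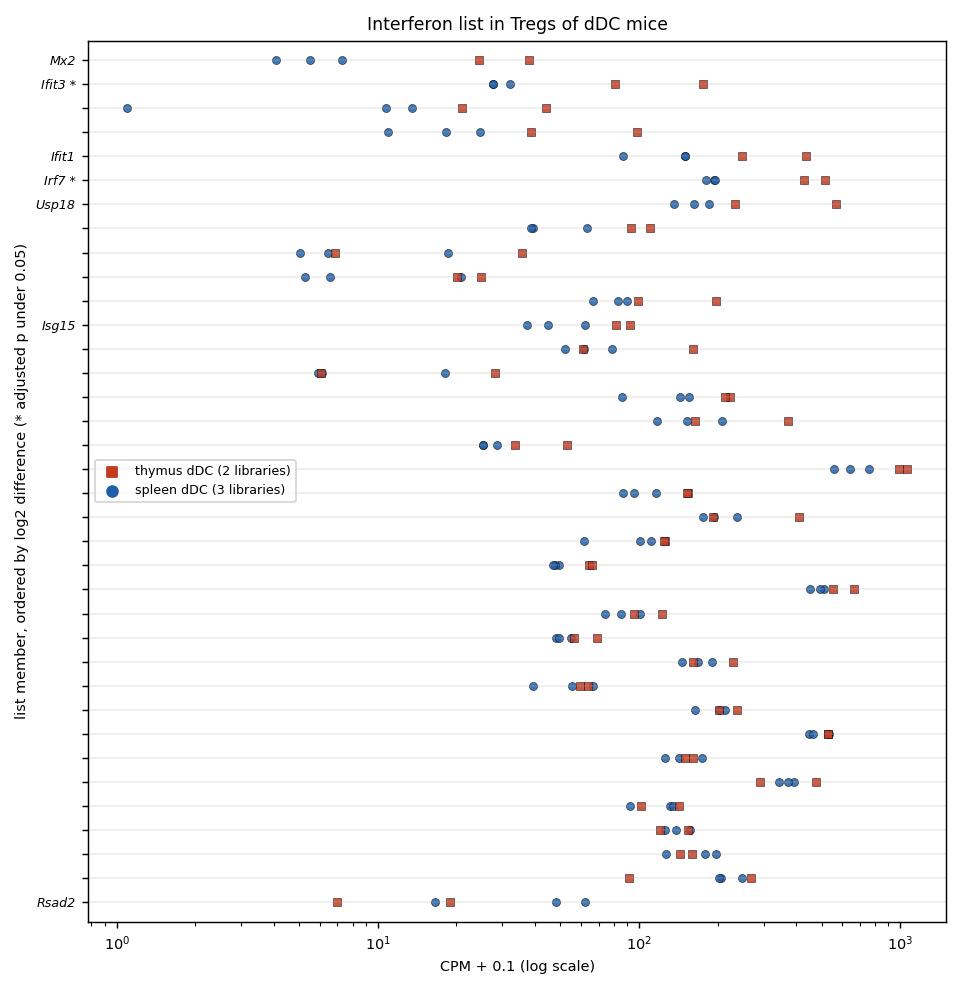
CPM + 0.1 (log axis) of the 36 members of the interferon list in the 2 thymus libraries (squares) and 3 spleen libraries (circles) of dDC mice, ordered by log2 difference, with names for the members whose values are given in the text and a star on the genes called by edgeR. Both starred genes, Ifit3 and Irf7, have squares to the right of all circles, and at the bottom Rsad2 has a square between circles.

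On the lower side, 16 of the 24 called genes were members of the B cell list (8) or immunoglobulin segments (8), and 4 more, Blnk, Ly86, Siglecg and Tnfrsf13c, are known from B cells. Pax5, the factor that fixes B cell identity, measured 0 in both thymus libraries against 8.71, 8.88 and 26.5 CPM. Against 3 counts per library that is at least 94.2-fold lower (edgeR adjusted p = 0.00706). Ms4a1 (CD20) had 0 and 1 counts in thymus against 36, 56.4 and 79.2 CPM in spleen (adjusted p = 0.0292). The kappa light chain constant segment Igkc was at 4.66 and 16.2 CPM against 525, 335 and 399 CPM (log2 -5.33, SE 0.60, adjusted p = 0.00706). In 14 of the 24 lower genes both thymus libraries had no count. Igkc kept its call whichever of the 5 libraries was removed (edgeR adjusted p up to 0.0419), and Pax5 kept it in 4 of 5 such fits (adjusted p up to 0.0865). In bulk RNA, fewer cells of a type and less RNA per cell cannot be told apart.

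Not all B cell list members were near 0 in thymus. Of 20 members 8 fell and 0 rose, the median was -3.76, and 17 lay below spleen (12.6% of all genes did). The summed level was 2054 and 1994 CPM in thymus against 4815, 5328 and 6225 CPM in spleen. In thymus most of that sum was Ighm, the constant gene of the mu heavy chain, at 1547 and 1579 CPM. Ighm also stood at 2945, 2914 and 3088 CPM in spleen and did not pass (log2 -0.93, edgeR adjusted p = 0.13). The dendritic cell list was mixed, with 7 of 17 tested members positive and 10 negative. Of these 17, 2 lay above spleen (10.2% of all genes did) and 5 below (12.6%), and 1 was called (0.179% of all genes). Its summed level was 359 to 389 CPM in thymus and 669 to 902 CPM in spleen. In spleen most of that sum was the MHC class II chain genes H2-Aa, H2-Ab1 and H2-Eb1. H2-Aa stood at 15.8 and 2.5 CPM in thymus against 148, 178 and 292 CPM in spleen (edgeR adjusted p = 0.222). The part of B cells in the levels of these chains was not tested. H2-Eb1, an MHC class II chain, fell from 84.6, 93.9 and 118 CPM to 2.3 and 3.5 CPM (log2 -5.09, SE 0.81, adjusted p = 0.0339). H2-Ab1 stood at 4.2 and 0.4 CPM against 111, 136 and 186 CPM (adjusted p = 0.131), and Bst2, an antiviral membrane protein gene, at 154 and 153 CPM against 116, 95.4 and 86.7 CPM (log2 0.63, adjusted p = 0.624).

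Among lists of other blood cells, the erythroid list stood apart between the tissues without a call. The summed erythroid list was at 17.4 and 15.0 CPM in thymus and at 4377, 2431 and 3822 CPM in spleen, and all 8 tested members were negative (smallest edgeR adjusted p = 0.114). The beta globin gene Hbb-bt had 0 and 1 counts in thymus against 772, 371 and 636 CPM. Of 15 tested macrophage and monocyte genes 0 were called and 13 were negative. Their median was -7.19, and 11 lay below spleen (12.6% of all genes did) and 1 above (10.2%). Their sums overlapped, at 607 and 738 CPM in thymus and 650 to 1000 CPM in spleen. Most of the thymus sum was Ctss (cathepsin S), at 577 and 732 CPM against 447 to 490 CPM in spleen. Csf1r and Adgre1, which define macrophages, had at most 1 count in a thymus library against 25.8 to 74.3 and 9.6 to 46.8 CPM. The sums of the neutrophil list (0 and 13.7 against 1.94 to 12.2 CPM) and of the plasma cell list (283 and 214 against 238 to 335 CPM) overlapped as well. The part of these cells in the differences of other genes was not tested. The log2 summed B cell level, centred over all libraries, was -1.13 and -1.18 in dDC thymus and 0.095 to 0.466 in dDC spleen. A fit with it as a covariate therefore cannot tell B cell level from tissue. With the summed B cell level as a covariate the calls were 1 higher, Ctsw, and 5 lower, with Iglc2, Iglc3, Ly86 and Siglecg among them. In that fit the log2 differences were 0.74 for Tnfrsf18, 0.74 for Tnfrsf4, 0.97 for Ecm1, 1.02 for Irf7, 2.38 for Ifit3 and 1.75 for Cxcr6, with edgeR adjusted p between 0.206 and 0.384.

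**Figure D3:**
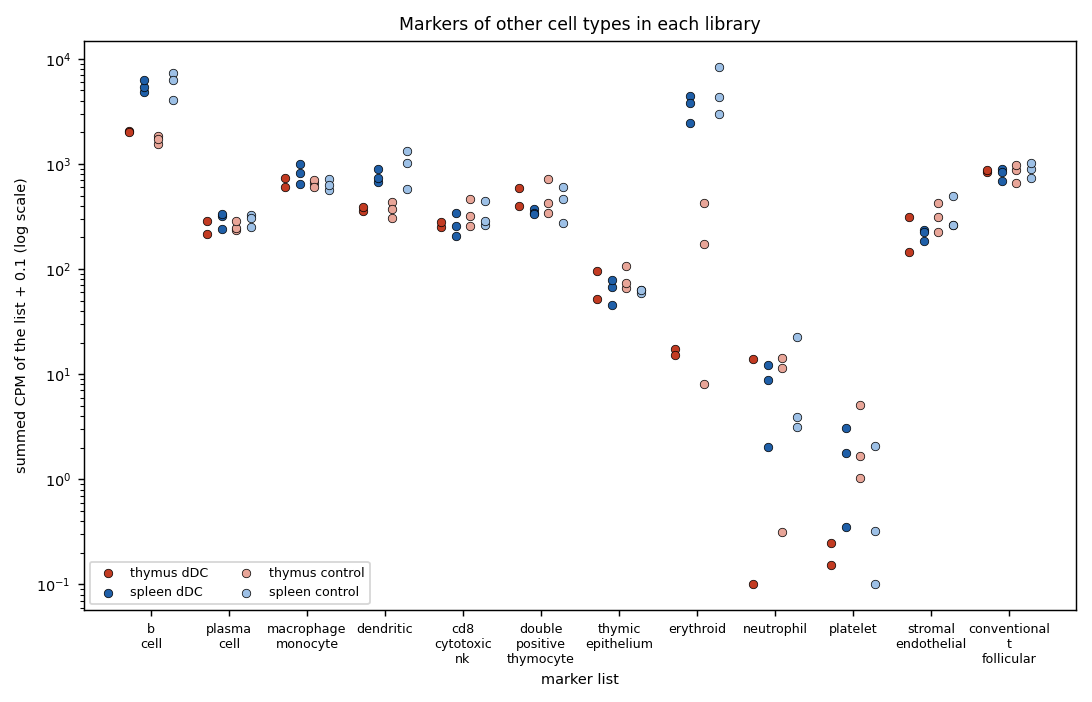
Summed CPM + 0.1 (log axis) of 12 marker lists of other cell types in each thymus and spleen library of dDC and control mice. The erythroid list separates the dDC groups most widely, at 15.0 and 17.4 CPM in thymus and 2431 to 4377 CPM in spleen, and the thymic epithelium, CD8, neutrophil, macrophage, plasma cell, stromal and conventional T cell lists overlap between the dDC groups.

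Outside the B cell and marker genes, 3 genes fell: Dtx1, Cst7 and Manea. Dtx1, the ubiquitin ligase Deltex and a target of Notch, measured 9.37 and 12.1 CPM in thymus against 62.0, 70.5 and 77.5 CPM in spleen (ENSMUSG00000029603, chromosome 5, 120680202 to 120711927). That is 6.52-fold lower (log2 -2.71, SE 0.35, edgeR adjusted p = 0.0118), and Dtx1 was the only called gene among 7 tested Notch pathway genes. Deltex is also expressed in B cells, and the part of B cells in this difference was not tested. The receptor genes Notch1 and Notch2 had log2 differences of -0.25 and -0.17, and Rbpj, the DNA-binding partner of Notch, stood at 77.1 and 74.2 CPM against 36.5, 29.3 and 40.2 CPM (log2 1.10, adjusted p = 0.332). Cst7 (cystatin F), an inhibitor of lysosomal cathepsins, measured 81.5 and 72.8 CPM against 187, 226 and 255 CPM, 2.89-fold lower (log2 -1.53, SE 0.23, adjusted p = 0.0202). Manea, an endomannosidase that trims sugar chains in the Golgi, measured 1.04 and 0.54 CPM against 11.8, 9.08 and 12.6 CPM (log2 -3.81, SE 0.65, adjusted p = 0.0473). The call of Manea was lost with each of the 5 libraries left out (adjusted p up to 0.254). With single libraries left out, Dtx1 lost its call only without thymus library 1, and Cst7 kept its call only without spleen library 1. Both also lost it with only the 5 libraries of the comparison and with the summed B cell level as a covariate, which itself separates the tissues. A test against a log2 fold change of 1 (glmTreat) called neither.

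With single libraries left out, each of the 9 higher genes kept its sign and kept its call in 0 to 2 of 5 fits. Cxcr6 had a highest edgeR adjusted p of 0.096 in these fits and Ctsw of 0.111, both without thymus library 1. For Ecm1 and Tnfrsf4 it was 0.161, for Tnfrsf18 0.159, for Irf7 0.176, for Tff1 0.216 and for Tbata 0.22, each without the same library. For Ifit3 it was 0.129, without spleen library 3. The log2 difference of Ifit3 was 1.48 without thymus library 2 and 2.60 without thymus library 1, and that of Tnfrsf4 lay between 1.04 and 1.18.

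Immature thymocytes are the most abundant T lineage cells of the thymus, and genes of their development were examined as a list. Of 18 tested members 0 were called, 13 were positive and the list median was 0.59, or -0.02 without thymus library 2. The marker list of double positive thymocytes moved with the tissue: 9 of 10 tested members were positive, 4 lay above spleen and 0 below, and the median was 1.05 (0.29 to 1.65 with single libraries left out), with 0 calls. Its summed level was 591 and 401 CPM in thymus and 331 to 368 CPM in spleen, and its part in the other differences was not tested. Rag1, which cuts DNA for antigen receptor assembly, stood at 9.69 and 2.85 CPM, 177 and 58 counts, against 1 count in 3 spleen libraries. It did not pass (log2 8.07, SE 1.53, edgeR adjusted p = 0.12). Rag2 and Ptcra, the pre-T cell receptor chain, were too low to be tested. Myb, a factor of dividing progenitors, stood at 39.6 and 61.3 CPM against 13.8, 24.7 and 15.7 CPM (adjusted p = 0.329), with no overlap. Lef1, Tcf7 and Bcl11b, which set T cell fate, had differences between -0.19 and -0.10. Cd24a, which falls as thymocytes mature, stood at 0.27 and 10.8 CPM against 22.6, 10.7 and 26.9 CPM (log2 -1.85, adjusted p = 0.799).

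Genes of thymic exit gave no call. Among 18 tested members the median was 0.06, and 3 lay above and 4 below spleen, where 10.2% and 12.6% of all genes did. S1pr1, the receptor for exit along sphingosine phosphate, stood at 418 and 650 CPM against 468, 460 and 407 CPM (log2 0.26, edgeR adjusted p = 0.835). Its regulator Klf2 stood at 58.9 and 65.5 CPM against 66.5, 74.5 and 41.4 CPM, with a log2 difference of 0.03. Gpr183, an oxysterol receptor that positions lymphocytes in spleen, had lower values of 161 and 124 CPM against 283, 234 and 258 CPM (log2 -0.86, adjusted p = 0.26). The KLF motif CACCC, searched on both strands, lies in the windows of 11 of the 15 list members with an entry (73.3%), and in those of 59.8% of all genes.

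Tissue Treg genes, known from Tregs of fat and other organs that respond to interleukin 33, had 0 calls and a median of 0.62. Of 25 members 19 were positive, 12 lay above spleen (10.2% of all genes did) and 0 below (12.6%). The median stayed between 0.46 and 0.76 with each library left out. Il1rl1, the interleukin 33 receptor, stood at 146 and 132 CPM against 85.3, 55.2 and 58.6 CPM (log2 1.07, SE 0.51, edgeR adjusted p = 0.646). Il18r1, the interleukin 18 receptor, stood at 209 and 212 CPM against 155, 112 and 91.0 CPM (log2 0.82, adjusted p = 0.458). Id2, which holds back E proteins, stood at 424 and 391 CPM against 282, 278 and 180 CPM (log2 0.72, adjusted p = 0.496). Klrg1 and Gata3 had differences of -0.03 and 0.29, and their libraries overlapped. In the effector list of 28 genes 0 were called and the median was -0.09. S100a11, a calcium-binding protein gene, stood at 172 and 169 CPM against 296, 266 and 264 CPM (log2 -0.69, adjusted p = 0.182). Vim, for the filament protein vimentin, stood at 652 and 564 CPM against 403, 377 and 332 CPM (log2 0.71, adjusted p = 0.28). Naive or resting genes had a median of -0.01 with 0 calls, and Bcl2, the survival factor, stood at 223 and 286 CPM against 144, 140 and 126 CPM (log2 0.90, adjusted p = 0.383).

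TGF-beta is needed for Treg formation and induces Itgae and the feedback gene Skil. Skil came nearest to a call among its 15 list members, with 491 and 652 CPM in thymus against 177, 237 and 224 CPM in spleen (log2 1.43, SE 0.27, edgeR adjusted p = 0.0835). The receptor gene Tgfbr1 stood at 95.8 and 95.7 CPM against 49.0, 60.0 and 33.9 CPM (log2 1.01, adjusted p = 0.398). The list had 12 positive members, 0 calls and a median of 0.36 (0.22 to 0.69 with single libraries left out). Among 26 genes of antigen receptor signals 1 was called, Tnfrsf4, and the median was 0.15 (0.05 to 0.35 with single libraries left out). Nr4a1, a gene that reports recent receptor signals, stood at 220 and 232 CPM against 77.0, 115 and 70.9 CPM (log2 1.37, adjusted p = 0.616). Of 22 immediate-early and heat-shock genes, which cell handling can also induce, 0 were called and 19 were positive. Their median was 0.15, but -0.12 with 9 positive without thymus library 2 and 0.52 without spleen library 1.

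Genes of cell division and of cholesterol synthesis had the lowest program medians, -0.54 and -0.53, with 0 calls in each. Of 30 division genes 25 were negative, beside 9508 of all 18423, and 9 lay below spleen (12.6% of all genes did) and 0 above (10.2%). Mki67, a marker of cycling cells, stood at 32.6 and 36 CPM against 70.8, 58.5 and 96.3 CPM (log2 -1.13, edgeR adjusted p = 0.667). Of 20 cholesterol genes 17 were negative and 7 lay below spleen (again beside 12.6%), and their median was -1.01 without thymus library 2. Msmo1, a sterol oxidase, stood at 12.4 and 26.4 CPM against 90.5, 57.8 and 57.3 CPM (log2 -1.82, adjusted p = 0.183), and the epoxidase gene Sqle at 0.8 and 7.3 CPM against 26.4, 20.7 and 26.7 CPM. All 8 GIMAP genes, GTPases that keep resting lymphocytes alive, were negative. Gimap7 stood at 190 and 309 CPM against 425, 480 and 483 CPM (log2 -0.89, adjusted p = 0.435). Glycolysis genes had a median of 0.03 (-0.10 to 0.14 with single libraries left out).

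**Figure D4:**
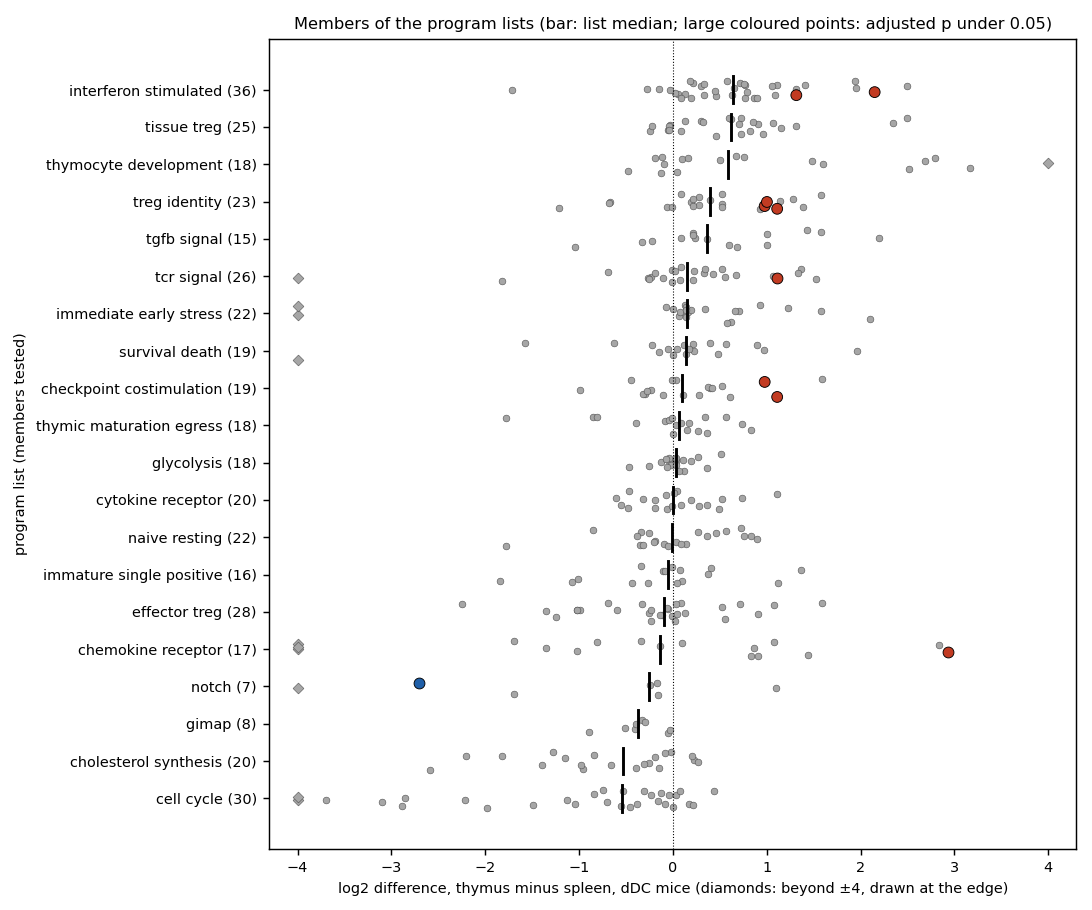
Log2 difference of thymus minus spleen in dDC mice for each tested member of 20 program lists, ordered by the list median (black bar; positions within a row are spread at random). The medians run from -0.54 for cell cycle to 0.64 for the interferon list, and large coloured points mark the called genes, all to the right of 0 except Dtx1 in the Notch list.

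Littermate controls gave the same comparison in other libraries of the same fit. There 111 genes were called (0.603%), 29 higher (0.157%) and 82 lower (0.445%) in thymus. Of the 33 genes called in dDC mice 28 were also called in controls, 84.8% of the dDC calls and 25.2% of the control calls. All 9 higher genes were positive in controls and 23 of 24 lower genes negative. Tnfrsf4 rose by 1.18 in controls, Tnfrsf18 by 0.88, Ecm1 by 1.30, Irf7 by 1.17 and Ctsw by 2.57 on the log2 scale. The difference between the genotypes was tested as an interaction, and 0 of 18423 genes passed with edgeR (the lowest adjusted p was 0.513). With no adjustment, 932 had p under 0.05 (5.06%), where 921 would be expected if no gene differed. DESeq2 called 36, limma called 0, edgeR without a filter on low counts called 1, and edgeR without thymus library 1 or 2 called 0 and 21.

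Cxcr6, Ifit3 and Manea are given here by genotype as genes called in dDC mice. Manea, Ctsh and Rhoq had among the smallest interaction p-values in their direction. None of these genes passed the interaction test. Cxcr6 was at 142, 145 and 123 CPM in control thymus and 76.5, 56.4 and 52.0 CPM in control spleen, a difference of 1.15 beside 2.93 in dDC mice (interaction 1.78, SE 0.49, edgeR adjusted p = 0.965). The dDC thymus libraries lay above the control thymus libraries and the dDC spleen libraries below the control spleen libraries. Ifit3 had a control difference of 1.22 and an interaction of 0.93 (adjusted p = 0.965). Manea stood at 12.0, 12.2 and 15.3 CPM in control thymus and 3.03, 12.0 and 11.5 CPM in control spleen, and its interaction was -4.38 (SE 0.80, adjusted p = 0.513). Ctsh, a lysosomal aminopeptidase gene, had at most 0.115 CPM in control thymus and 8.87 and 3.88 CPM in dDC thymus (interaction 6.90, adjusted p = 0.513). Rhoq, for a small GTPase, stood at 0.55 and 0.39 CPM in dDC thymus and 6.65 to 12.1 CPM in control thymus (interaction -3.85, adjusted p = 0.965).

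**Figure D5:**
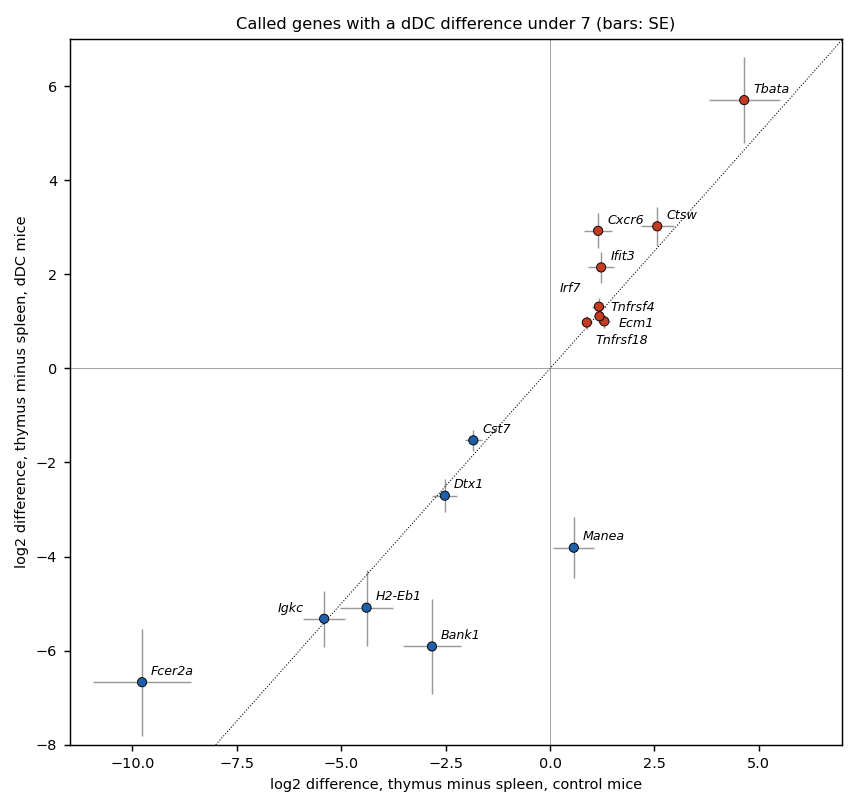
Log2 difference of thymus minus spleen in dDC mice (y) against control mice (x) for the 15 called genes with a dDC difference under 7 in size, with SE bars and a dotted line of equality. The other 18, Tff1 and lower genes at or near 0 in thymus, are not drawn, and Manea (-3.81 and 0.57) lies alone to the right of 0 and below it.

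Peritoneal Tregs of dDC mice, 2 libraries of the same fit, place the called genes further. Tnfrsf4 measured 1603 and 1656 CPM there, Tnfrsf18 1119 and 1185 CPM and Ecm1 574 and 684 CPM, all above the dDC spleen values. Cxcr6 measured 153 and 149 CPM, between spleen and thymus. Irf7 measured 94.5 and 118 CPM, Ifit3 5.82 and 6.67 CPM and Ctsw 9.78 and 24.7 CPM, all below the dDC spleen values. Dtx1 measured 8.86 and 5.50 CPM, near the thymus level, while Manea measured 11.2 and 10.6 CPM, near the spleen level. The summed B cell list was at 7368 and 12190 CPM in these peritoneal libraries, above the dDC spleen values. These are levels, and no test was run on them.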

How the data were processed

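RNA of sorted Foxp3-positive T cells was reverse transcribed with a template switch, amplified, sheared and sequenced, per the labels' protocols; the chemistry marks no strand, and no molecular identifiers are named. The submitters' processing notes name bcl2fastq 2.19.1, GSNAP, featureCounts 1.6.0 and build mm10. Settings for strand and multi-mapping reads were not stated. For every library, the authors deposited raw counts per Ensembl gene, and each library was grouped by its own label. Symbols were found for 45143 of 45706 genes. The 15 libraries held 15714286 to 24332044 counts. Spike-ins had at most 6 counts in a library used here.

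From the counts, edgeR 4.0.16 (R 4.3.3) kept 18423 genes by filterByExpr, scaled libraries with TMM (factors 0.96 to 1.05) and fitted 1 robust quasi-likelihood model with a mean for each of 6 groups leaving 9 residual degrees of freedom. All tests are two-sided with Benjamini-Hochberg adjustment over all tested genes at 0.05, and every adjusted p is from this test unless a tool is named. The SE is the log2 difference divided by the square root of F. CPM are TMM-scaled. A fold against a group at 0 uses 3 counts per library; floors cover counting error only. The biological coefficient of variation had a median of 0.55, 0.18 above 100 CPM and 1.29 below 5 CPM. Scripts were tested on simulated counts.

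Lists, members and the rule for named genes were chosen with earlier results of these data known. The rule took the 12 largest called changes each way with at least 50 CPM and separate ranges, outside marker lists and antigen receptor genes, plus list members by p or level, the 3 smallest interaction p each way and 24 fixed genes. Tbata, Tff1, Manea, the lower B cell and immunoglobulin genes and further list members such as Itgae, Usp18, Ifit1, Isg15, Mx2, Rsad2 and Mki67 were named after their values were seen. Faim3 was matched under its current symbol Fcmr. Alternatives were other scalings, filters, tools (limma 3.58.1, DESeq2 1.42.0), sample sets, a B cell covariate, glmTreat and single libraries left out. Some genes are not reported here.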

Additional observations from a re-analysis of the deposited data

How the results depend on the processing

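Counts of genes higher and lower in dDC thymus (9 and 24) and with a genotype interaction (0) were recomputed under each alternative. With DESeq2 size factors the counts were 9, 24 and 0, with library totals 9, 23 and 0, and with a minimum of 5 CPM in 2 libraries 11, 26 and 0. Without a filter on low counts they were 17, 43 and 1, with limma voom 17, 8 and 0, and with DESeq2 106, 319 and 36. With the B cell covariate, which itself separates thymus from spleen, they were 1, 5 and 0. With only the 5 libraries of the comparison 4 were higher and 12 lower, and 2 and 6 of these were among the main calls. A test against a log2 fold change of 1 (glmTreat) left 1 and 12. The interaction was 0 in the 11 thymus and spleen libraries alone. Leaving out single libraries gave 1 to 11 higher, 2 to 70 lower and 0 to 21 interaction genes, with 2 lower genes without thymus dDC library 1, and 70 lower and 21 interaction genes without thymus dDC library 2; the lone thymus library is then assumed to vary like the other groups. Of the 33 called genes, DESeq2 kept all 9 higher and all 24 lower, and limma kept 8 and 7; the cause of the differences was not tested. No called gene changed direction in any alternative; among values for 176 gene results, 54 of 2477 alternative values had the other sign, none of them called. No paired analysis was possible because the labels give no replicate numbers that thymus and spleen share. With 2 thymus libraries and a median coefficient of variation of 1.29 below 5 CPM, differences of weakly expressed genes were often not detectable. In simulated counts, 11 of 44 genes of at least 50 CPM that were changed 2-fold were called, and 37 of 42 changed 4-fold. Differences near 2-fold were thus often missed at higher levels as well.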

Other observations

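The alpha globin gene Hba-a1 stood at 0 and 0.44 CPM in dDC thymus and at 61.5, 149 and 1.21 CPM in control thymus, against 797 to 1295 CPM in dDC spleen. No test was passed: the dDC tissue difference had an edgeR adjusted p of 0.207, and the interaction was -7.68 on the log2 scale (edgeR adjusted p = 0.965).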
